A study of Mus musculus with 24 samples.

Results

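The question was whether the response of inguinal fat to an exercise bout differed between 2 times of day, over all measured genes. It was asked as an interaction: the exercised minus sham difference at ZT15, minus the same difference at ZT3, in log2(value + 1). All 24 libraries of the series enter it, 6 in each of 4 groups, and 16233 genes were tested. An interaction above 0 means a higher exercised minus sham difference at ZT15. In genes with values well above 1, an interaction of 1 is close to a factor of 2 between the responses at the 2 times. In low genes the added 1 shrinks the differences. Each library is bulk RNA of inguinal white adipose tissue, a subcutaneous depot, from male C57BL6 mice of a single strain with no genetic change named. Exercised mice (RUN) had a 1 hour bout and sham mice (SED) were put on a treadmill that was artificial for as long. ZT counts hours from lights on, so ZT3 is early in rest and ZT15 early in activity for a nocturnal animal, and the ZT15 bout took place under red light. The design text lists several hours of collection after the bout, and the labels do not say to which of them these libraries belong. Libraries are named by time, treatment and a number given in the order of the records, such as ZT3_RUN_4. Whether every library is its own animal is not spelled out, so the spread behind the p-values may be partly technical.

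White fat stores triglyceride and releases fatty acids when sympathetic nerves and circulating hormones raise cAMP in adipocytes. Such signals switch on immediate early genes, which need no new protein for their transcription and encode transcription factors such as FOS, EGR1 and the NR4A receptors. Peripheral tissues also hold a circadian clock, in which CLOCK and BMAL1 drive genes whose products, among them PER, CRY and REV-ERB proteins, repress them in turn, so that the level of many transcripts before exercise depends on the hour.

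Depth in the listed genes was 18.5 to 34.7 M (mega) reads per library. Adipocyte markers identified the tissue: the summed level of 10 such genes lay between 11613 and 33214 in every library. 3 libraries stood apart in lymphocyte genes, and the inguinal depot contains a lymph node. ZT3_RUN_4 held Cd79a, part of the B cell receptor, at 99.2, ZT15_SED_5 at 54.6 and ZT15_SED_3 at 14.1, against at most 1.33 in each of the other 21. The summed level of 20 lymphocyte markers was 2807, 1942 and 592 in these libraries and at most 111 elsewhere. These libraries sit in the 2 groups that are subtracted, so values that moved by over 1.5 times without them are given both ways. Skeletal muscle markers varied in every group, with a summed level from 90.4 in a ZT3 SED library to 92603 in ZT15_RUN_6. ZT3_SED_1 and ZT3_RUN_1 each lay with the other ZT3 group in Tsc22d3, a glucocorticoid-induced gene, at 390 and 127. In Irf4, Errfi1, Fkbp5, Per1 and Nr4a3 they were likewise the highest ZT3 SED and the lowest ZT3 RUN library. In Egr1, at 23.1 and 22.1, they were not. Their title numbers are neighbours, 10 and 11. Both were kept as labelled, and why they lay so was not tested. Values that moved by over 1.5 times without this pair are given both ways. In bulk tissue a lower level from fewer cells of a type and one from less RNA per cell cannot be told apart.

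With limma no gene passed for the interaction: 0 of 16233 (0% called), with a smallest adjusted p of 0.583. At an unadjusted p under 0.05 there were 1273 genes (7.84%), 621 above 0 (3.83%) and 652 below 0 (4.02%). A flat distribution of p-values would put 812 genes there. edgeR on recovered reads called 0 genes with 2135 at an unadjusted p under 0.05, and DESeq2 called 239 (1.47% of the 16206 genes it adjusted). No library left out in turn, and no other scaling or variance model in limma, gave a gene past the threshold. Without the 3 libraries high in Cd79a the count at an unadjusted p under 0.05 was 580, of which 365 were among the 1273, and the smallest limma adjusted p was 1.00.

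The precision of 6 libraries a group sets what these counts can show. The median standard error of an interaction was 0.18, with quartiles of 0.14 and 0.26, and the median gene had a 95% interval reaching 0.38 to either side of its estimate. For 13331 genes (82.1%) the whole interval lay between -1 and 1. Where the values are well above 1, a factor of 2 or more between the responses lay outside such an interval. For low genes this does not follow, since the added 1 shrinks their differences. Of the estimates 50.7% were above 0, and 62.5% were when each library was centred on its own median. Estimates of 1 or more in size numbered 461, 114 above and 347 below 0. Without the libraries high in Cd79a 46 were left, 43 above and 3 below 0. The wide negative side of the distribution was thus not present in the other 21 libraries.

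Most of the genes at small p had exercise differences of opposite sign at the 2 times. Of the 621 above 0, 490 were higher in RUN at ZT15 and lower in RUN at ZT3, 130 were higher at both and 1 was lower at both. Of the 652 below 0, 587 were lower in RUN at ZT15 and higher at ZT3, and 65 were lower at both. These shares follow in part from the ranking, since a difference of differences is largest where the signs are opposite.

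**Figure D1:**
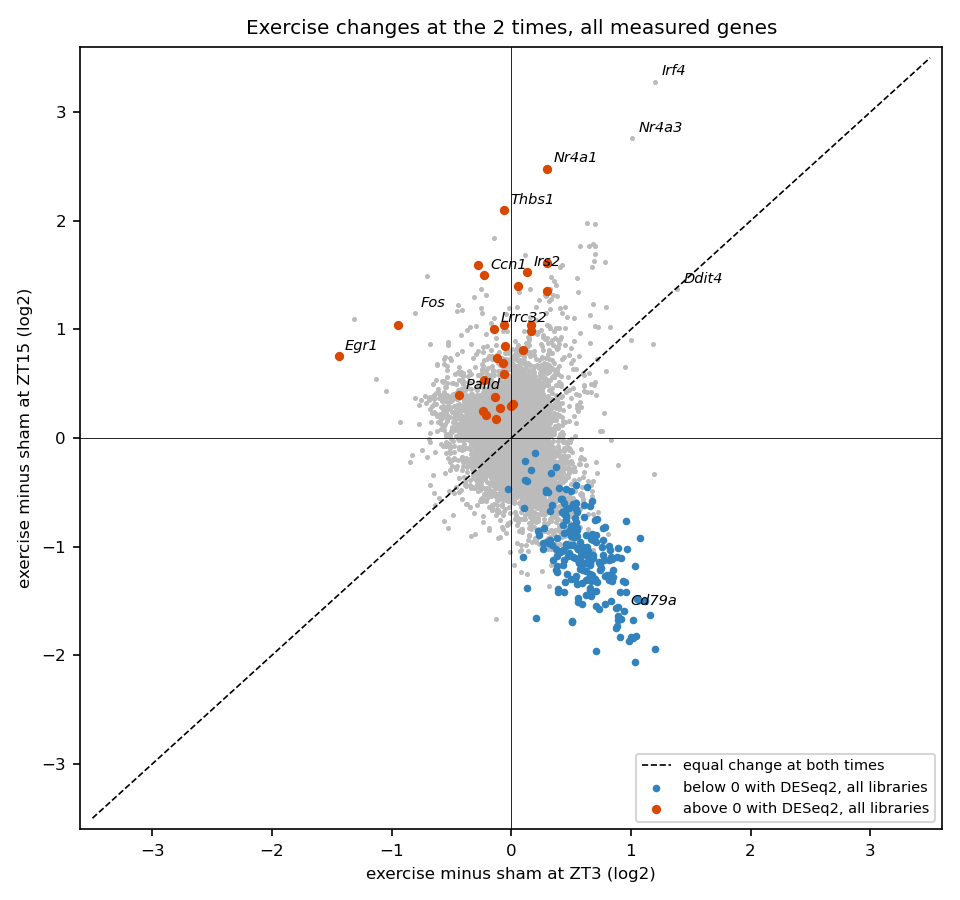
Exercised minus sham difference at ZT3 (horizontal, log2) and at ZT15 (vertical, log2) for each of the 16233 genes, with the dashed line at equal change. Orange points are the 28 genes that DESeq2 placed above 0 and blue points the 211 below 0, with all 24 libraries. The blue points form a band at the lower right that holds Cd79a, and Irf4, Nr4a3 and Nr4a1 lie at the top, while Ddit4 lies on the dashed line.

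The 12 expressed, named genes of smallest p above 0 are described first. Lrrc32 (ENSMUSG00000090958) encodes GARP, which docks latent TGF-beta on the cell surface. Its lowest, median and highest values were 13.3, 18.8 and 25.8 in ZT3 SED, 11.5, 17.3 and 20.1 in ZT3 RUN, 9.99, 12.4 and 15.3 in ZT15 SED, and 15.5, 25.5 and 42.2 in ZT15 RUN. At ZT3 the groups overlapped, and at ZT15 every exercised library lay above every sham library. The interaction was 1.15 ± 0.26 (SE), with a 95% interval of 0.62 to 1.68 (limma adjusted p = 0.583), and it was 1.16 without the libraries high in Cd79a.

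Thbs1 (ENSMUSG00000040152) encodes thrombospondin 1, a matrix glycoprotein that can activate latent TGF-beta. It ran from 37.4 to 159 (median 79.6) in ZT3 SED, from 35.9 to 190 (69.6) in ZT3 RUN, from 24.2 to 39.8 (33.1) in ZT15 SED and from 47.0 to 369 (150) in ZT15 RUN. The ZT3 groups lay over each other, whereas at ZT15 the sham libraries were low and close together and all exercised libraries were above them. The interaction was 2.16 ± 0.60 (95% interval 0.92 to 3.41), and 2.29 without the libraries high in Cd79a.

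Irs2 (ENSMUSG00000038894), an adaptor of the insulin receptor, was at 76.7 to 170 (median 91.2) in ZT3 SED, 72.9 to 181 (102) in ZT3 RUN, 55.7 to 93.5 (65.8) in ZT15 SED and 99 to 326 (246) in ZT15 RUN. Exercised and sham libraries were separate at ZT15 and mixed at ZT3, with an interaction of 1.40 ± 0.40 (95% interval 0.57 to 2.22). Fzd5 (ENSMUSG00000045005), a Wnt receptor, was the gene of this group that was already higher at ZT15 in sham libraries, at 16.4 to 29.5 (median 19.8) against 10.2 to 14.6 (11.1) at ZT3. In RUN it was at 10.2 to 19.2 (15.4) at ZT3 and at 33.6 to 96.8 (52.6) at ZT15, so the ZT15 groups did not overlap (interaction 1.05 ± 0.28, 95% interval 0.47 to 1.64). Tiparp (ENSMUSG00000034640), an ADP-ribosyltransferase and target of the aryl hydrocarbon receptor, was at 62.5 to 99.7 (median 75.6), 59.1 to 107 (97.7), 59.5 to 90.4 (83.7) and 113 to 201 (164) in the same group order. Its 6 exercised ZT15 libraries were the 6 highest of the 24 (interaction 0.82 ± 0.22, 95% interval 0.36 to 1.27).

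2 pumps showed small differences with little spread. Atp2a2 (ENSMUSG00000029467), which encodes the calcium pump SERCA2, was at 209 to 250 (median 217) in ZT3 SED, 172 to 231 (212) in ZT3 RUN, 192 to 231 (220) in ZT15 SED and 251 to 274 (264) in ZT15 RUN. The exercised ZT15 libraries were above all others, and the interaction was 0.38 ± 0.10 (95% interval 0.18 to 0.57). It was 0.27 without the libraries high in Cd79a. Atp13a3 (ENSMUSG00000022533), a transport ATPase for polyamines, was the gene of the 12 whose groups were separate at ZT3 instead. It was at 202 to 234 (median 212) in ZT3 SED and 181 to 201 (198) in ZT3 RUN, and at 187 to 218 (202) and 201 to 257 (230) in ZT15 SED and RUN (interaction 0.31 ± 0.08, 95% interval 0.13 to 0.48). Azin1, whose product raises polyamine synthesis by binding antizyme, also had an interaction above 0 (0.30 ± 0.08).

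Palld (ENSMUSG00000058056), an actin scaffold, differed in opposite senses: it was at 54.9 to 83.1 (median 64.6) in ZT3 SED and 36.2 to 62.6 (49.5) in ZT3 RUN, and at 40.3 to 61.8 (47.4) and 53.7 to 91.1 (62.2) at ZT15. The groups overlapped at each time, with differences of -0.44 ± 0.15 and 0.40 ± 0.15 and an interaction of 0.83 ± 0.21 (95% interval 0.40 to 1.27). The vesicle coat gene Sec24a had the same pattern at a smaller size (-0.21 ± 0.08 and 0.21 ± 0.08). The remaining genes of the 12 were Sema4c, a semaphorin (interaction 0.76 ± 0.21), and the zinc finger gene Zfp948 (0.71 ± 0.20). All 12 had an unadjusted limma p of at most 0.0131 without the libraries high in Cd79a, with interactions between 0.27 and 2.29. The 12 were ranked on a fit that contains the same 21 libraries, so nothing is read from these p-values.

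Taken at ZT15 alone, 104 genes differed with exercise (0.641% of genes). The omission of the libraries high in Cd79a left 22, and the count was 16 without ZT15_RUN_4 and 293 without ZT3_RUN_4. Without ZT3_SED_1 and ZT3_RUN_1 it was 199. Of the 12 genes above 0, 8 rose at ZT15: Lrrc32, Tiparp, Fzd5, Thbs1, Sema4c, Zfp948, Azin1 and Irs2, by 0.32 (Azin1) to 2.10 (Thbs1). The 12 were ranked on an interaction that contains the same ZT15 libraries, so nothing is read from that share. Without the libraries high in Cd79a, Tiparp and Fzd5 passed (limma adjusted p = 0.0328 and 0.0337), and Lrrc32, Thbs1 and Azin1 were at 0.0605. The change at ZT15 held without each single library for Tiparp, Fzd5 and Zfp948 among the 8. The others lost the call without ZT15_RUN_4 (Lrrc32 and Irs2, both at a limma adjusted p of 0.0515) or ZT15_RUN_5 (Thbs1 at 0.0857, Sema4c at 0.0989 and Azin1 at 0.0612).

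**Figure D2:**
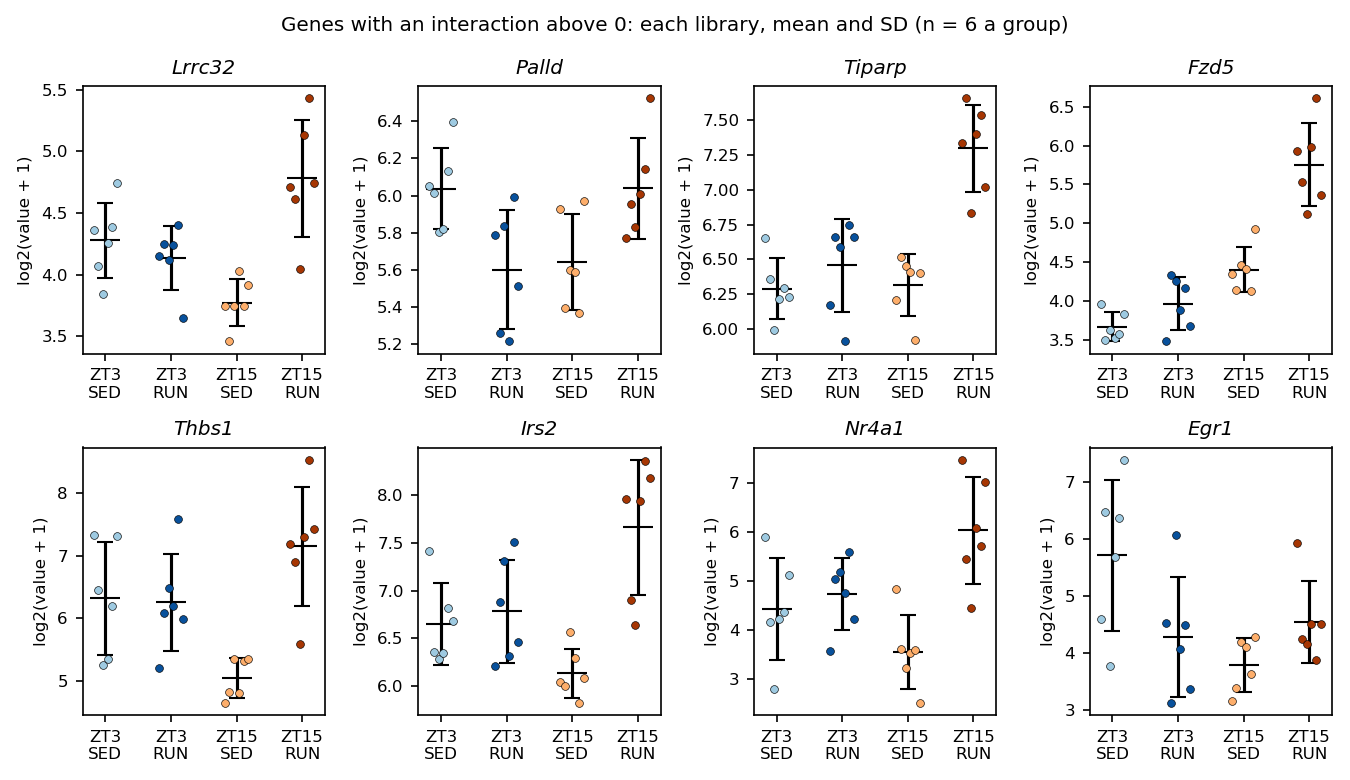
Values of 8 genes with an interaction above 0, in log2(value + 1), with each point a library and bars the mean and SD of 6 libraries in each of the 4 groups. In Lrrc32, Tiparp, Fzd5, Thbs1 and Irs2 every ZT15 RUN library lies above every ZT15 SED library, Palld is also lower in most ZT3 RUN libraries, and Egr1 is highest in ZT3 SED.

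The 3 NR4A receptors, orphan nuclear receptors induced by cAMP, had interactions of 2.18 ± 0.71 (Nr4a1), 1.34 ± 0.47 (Nr4a2) and 1.75 ± 0.79 (Nr4a3). Nr4a1 (ENSMUSG00000023034) was at 5.89 to 58.1 (median 18.6) in ZT3 SED, 10.8 to 47.3 (28.9) in ZT3 RUN, 4.69 to 27.6 (10.7) in ZT15 SED and 20.8 to 176 (58.9) in ZT15 RUN. The groups overlapped at both times, at ZT15 through ZT15_RUN_3 and ZT15_SED_1 alone, and the 95% interval of the interaction was 0.71 to 3.65. Nr4a3 (ENSMUSG00000028341) was at 2.33 to 35.2 (median 6.35), 3.68 to 44.8 (17.1), 2.37 to 8.48 (3.99) and 9.35 to 76.1 (46.4), separate at ZT15 and mixed at ZT3. The mixing came from ZT3_SED_1 (35.2) and ZT3_RUN_1 (3.68) alone. Without this pair Nr4a3 was at 2.33 to 8.43 in ZT3 SED and 8.60 to 44.8 in ZT3 RUN. Its interaction was 0.96 without ZT3_SED_1 and ZT3_RUN_1 and no longer reached an unadjusted p under 0.05, and that of Nr4a1 was 1.65. Nr4a2 was at 30.8 and 24.6 in ZT15_RUN_1 and ZT15_RUN_6. In the other ZT15 RUN libraries it was at 5.28 to 9.42, against 2.24 to 6.22 in ZT15 SED. Those 2 libraries were also highest in Nr4a1 (176 and 128) and in the muscle gene Myh4 (8995 and 22114) within ZT15 RUN. Nr4a3 was at 49.3 and 76.1 in them, beside 49.6 in ZT15_RUN_4. The part of muscle in the values of these receptors was not tested.

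The promoters of these receptors are shown because they hold several copies of a motif that CREB, the factor activated by cAMP, is known to bind. The 250 bases before the RefSeq start of each NR4A gene and of Fos are printed below in gene orientation (GRCm38.p6), with capitals marking TGACG, the core bound by CREB and ATF proteins, in either orientation (CGTCA is its reverse complement). They lie at chr15:101266596-101266845 (+ strand), chr2:57124004-57124253 (- strand), chr4:48045055-48045304 (+ strand) and chr12:85473640-85473889 (+ strand).
Nr4a1: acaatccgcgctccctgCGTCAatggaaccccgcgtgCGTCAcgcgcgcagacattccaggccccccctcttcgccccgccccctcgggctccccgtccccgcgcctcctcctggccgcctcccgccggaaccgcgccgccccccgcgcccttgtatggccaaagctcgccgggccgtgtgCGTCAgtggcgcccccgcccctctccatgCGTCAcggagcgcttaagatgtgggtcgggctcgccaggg
Nr4a2: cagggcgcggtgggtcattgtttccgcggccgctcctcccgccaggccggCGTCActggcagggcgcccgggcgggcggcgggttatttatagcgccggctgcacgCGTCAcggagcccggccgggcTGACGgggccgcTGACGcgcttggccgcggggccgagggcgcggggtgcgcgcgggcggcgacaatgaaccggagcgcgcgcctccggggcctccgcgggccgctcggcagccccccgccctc
Nr4a3: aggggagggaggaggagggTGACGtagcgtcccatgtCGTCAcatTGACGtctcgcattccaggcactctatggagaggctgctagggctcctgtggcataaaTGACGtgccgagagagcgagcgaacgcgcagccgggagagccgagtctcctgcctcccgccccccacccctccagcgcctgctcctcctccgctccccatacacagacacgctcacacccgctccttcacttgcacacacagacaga
Fos: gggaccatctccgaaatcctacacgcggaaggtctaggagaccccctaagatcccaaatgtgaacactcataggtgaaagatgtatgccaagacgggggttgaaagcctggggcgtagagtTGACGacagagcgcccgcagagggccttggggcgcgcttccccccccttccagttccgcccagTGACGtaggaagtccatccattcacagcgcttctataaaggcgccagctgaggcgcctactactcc

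Each NR4A window holds 4 copies of TGACG and the Fos window holds 2. Over the AP-1, Egr and NR4A lists together 24 of 33 genes had a promoter in the table, and 16 of these 24 held the motif, counted on both strands with overlaps allowed. The motif was in 17.8% of all promoters of this length, in 19.8% of genes with a promoter and in 28.1% of the measured genes with one. The full 8-base palindrome TGACGTCA was in 2 of the 24, Btg2 and Maff, against 1.77% of genes with a promoter and 2.79% of the measured ones. Of the 12 leading genes above 0, 7 were matched and 1 (Sec24a) held TGACG. The 12 leading genes below 0 were all matched, and 4 held it (Kbtbd7, Gcc1, Nub1 and Oard1). Among the 28 genes that DESeq2 placed above 0, 15 were matched and 6 held it. A match is a description of letters and not a measured site.

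Egr1 (ENSMUSG00000038418), a zinc finger factor, was at 12.7 to 168 (median 65.9) in ZT3 SED, 7.69 to 66.6 (18.6) in ZT3 RUN, 7.85 to 18.3 (13.8) in ZT15 SED and 13.8 to 60.5 (19.9) in ZT15 RUN. The highest median was that of sham libraries at ZT3, and the groups overlapped at both times. The difference was -1.44 ± 0.52 at ZT3 and 0.75 ± 0.52 at ZT15, which gives an interaction of 2.19 ± 0.74 (95% interval 0.67 to 3.72). Fos (ENSMUSG00000021250), a subunit of AP-1, had the same form, at 22.3 to 156 (median 47.3), 17.2 to 105 (26.4), 4.07 to 19.3 (9.53) and 13.2 to 62.8 (19.5) in the same group order. Its differences were -0.81 ± 0.51 and 1.15 ± 0.51 (interaction 1.95 ± 0.72, 95% interval 0.47 to 3.44). Ccn1 (ENSMUSG00000028195), a secreted matrix protein induced early by growth factors, was at 12.2 to 35.8 in ZT15 SED and 42.3 to 117 in ZT15 RUN, without overlap, and at 30.9 to 149 and 34.3 to 94.9 at ZT3 (interaction 1.73 ± 0.51, 95% interval 0.67 to 2.80).

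Irf4 (ENSMUSG00000021356), a fasting- and cAMP-induced factor of adipocytes, had a ZT15 difference of 3.28 ± 0.68. It was at 33.2 to 492 (median 88.6) in ZT3 SED and 52.2 to 788 (276) in ZT3 RUN, which overlapped over most of their range. Without ZT3_SED_1 (492) and ZT3_RUN_1 (52.2), Irf4 was at 33.2 to 191 and 94.2 to 788 in these groups, with less overlap. At ZT15 it was at 59.2 to 145 (78.3) in SED and 182 to 1744 (1107) in RUN, with no overlap. The interaction was 2.08 ± 0.96, with a 95% interval of 0.09 to 4.07, and it was 1.20 without ZT3_SED_1 and ZT3_RUN_1. Crem (ENSMUSG00000063889), which encodes a cAMP-responsive repressor, was at 18.9 to 43.4 (median 21.0) and 17.1 to 46.9 (27.0) at ZT3 and at 15.8 to 21.0 (18.4) and 23.8 to 56.1 (48.4) at ZT15 (interaction 1.00 ± 0.32, 95% interval 0.35 to 1.65). Pdk4 (ENSMUSG00000019577), a kinase that restrains pyruvate oxidation, was at 163 to 439 (median 309) and 209 to 715 (265) at ZT3 and at 252 to 513 (413) and 441 to 2298 (991) at ZT15 (interaction 1.28 ± 0.48, 95% interval 0.29 to 2.26).

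The numbers in the library titles run from 1 to 24, and each run of 8 holds 2 libraries of every group, so the interaction can be computed within each run. What the numbers stand for is not given. ZT3_SED_1 and ZT3_RUN_1 are both in the second run, where each is 1 of 2 libraries of its group. Of the libraries high in Cd79a, ZT3_RUN_4 and ZT15_SED_5 are in the first run and ZT15_SED_3 is in the third. For Nr4a1 the interaction was 2.89, 3.37 and 0.28 in the 3 runs in order, for Thbs1 2.51, 3.59 and 0.38, and for Irs2 2.14, 1.96 and 0.08. For Fos it was 3.83, 2.98 and -0.95, for Nr4a3 1.27, 4.30 and -0.32, and for Ccn1 2.76, 2.74 and -0.30. In these 6 genes the third run was near 0 or below it, while Palld (1.32, 0.59 and 0.59) and Il15 (-1.08, -0.57 and -0.62) had 1 sign in all runs. Each run has 2 libraries a group, so these values have no test, and whether the runs differ was not tested.

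Read across time instead of treatment, the same interaction is the ZT15 minus ZT3 difference in RUN, minus that in SED. In sham libraries 191 genes differed between the times (1.18%) and in exercised libraries 680 did (4.19%), 415 higher and 265 lower at ZT15, with 113 genes in both. The number in SED ranged from 130 without ZT3_SED_4 to 388 without ZT3_RUN_4. The number in RUN ranged from 330 without ZT15_RUN_4 to 1004 without ZT15_RUN_2, and the difference between the 2 counts was not tested. Without ZT3_SED_1 and ZT3_RUN_1 it was 434. Fos and Ccn1 passed in sham libraries and not in exercised ones, and the interaction is the test of that contrast. Fos fell by 2.45 in SED (limma adjusted p = 0.0132), and was at -0.50 in RUN (adjusted p = 0.601). Ccn1 fell by 1.54 in SED (limma adjusted p = 0.0337, 0.0817 without the libraries high in Cd79a and 0.0856 without ZT3_SED_6), and was at 0.19 in RUN. Egr1 was at -1.93 in SED (limma adjusted p = 0.0707) and 0.26 in RUN.

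2 metabolic and matrix genes had the same form. Pfkfb3 (ENSMUSG00000026773), which makes the activator of phosphofructokinase, was at 613 to 1142 (median 765) in ZT3 SED, 495 to 824 (604) in ZT3 RUN, 275 to 503 (316) in ZT15 SED and 333 to 565 (524) in ZT15 RUN. In sham libraries the times did not overlap and Pfkfb3 fell by 1.17 (limma adjusted p = 0.00101), against a difference of -0.44 in RUN (adjusted p = 0.169), an interaction of 0.73 ± 0.25. Col1a1, a chain of fibrillar collagen, fell by 0.93 in SED (limma adjusted p = 0.0485, 0.0931 without ZT3_SED_1 and ZT3_RUN_1, and 0.119 without ZT3_SED_2) and was at -0.12 in RUN. Of the clock genes, Nr1d1, which encodes REV-ERB alpha, differed between the times by -3.05 and -2.86 in SED and RUN, and Per2 by 1.99 and 2.12. The repressor gene Cry1 rose by 1.58 in SED, with an interaction of 0.02 ± 0.18. The 95% interval of the interaction was -0.35 to 0.74 for Nr1d1 and -0.34 to 0.38 for Cry1, so a change in their time difference of more than these bounds lay outside it. Other clock genes had larger interactions: Cry2, a repressor, was at 0.11 in SED and 0.59 in RUN (limma adjusted p = 0.839 and 0.0319), and Rora, an activator of Bmal1, at 0.03 and 0.54 (0.955 and 0.0426). The interactions of Cry2 and Rora were 0.49 and 0.51, but 0.26 and 0.22 once the libraries high in Cd79a were omitted. All 10 clock repressors and all 12 clock activators and outputs had interactions above 0, and 8 and 11 did without those libraries.

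**Figure D3:**
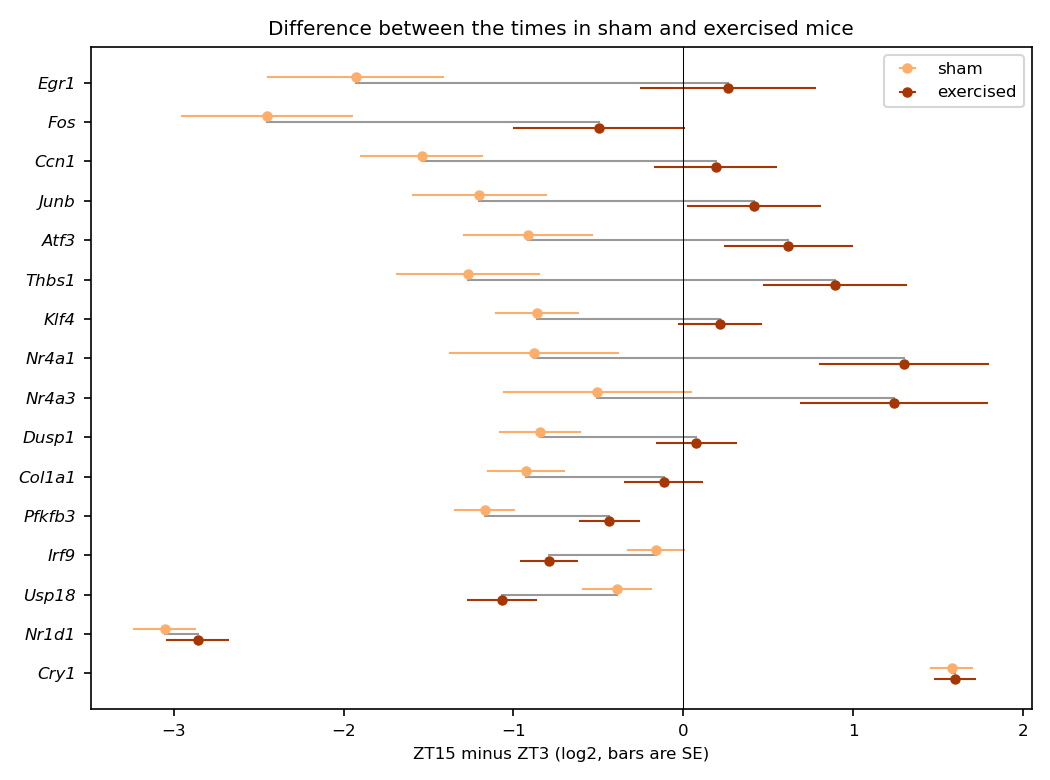
ZT15 minus ZT3 difference (log2, bars are SE) in sham and in exercised libraries for 16 genes, with the grey line between the points showing the interaction. The early genes lie further left in sham than in exercised libraries, Irf9 and Usp18 lie further left in exercised libraries, and Nr1d1 and Cry1 have nearly the same place in both.

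The expressed, named genes of smallest p below 0 had smaller and tighter differences than those above 0. Kbtbd7 (ENSMUSG00000043881), an adaptor of a cullin ubiquitin ligase, was at 13.7 to 19.0 (median 16.1) in ZT3 SED, 13.3 to 17.8 (15.9) in ZT3 RUN, 18.0 to 20.4 (18.7) in ZT15 SED and 10.2 to 15.2 (14.5) in ZT15 RUN. At ZT15 every exercised library was below every sham library, and at ZT3 the groups lay over each other (interaction -0.44 ± 0.13, 95% interval -0.70 to -0.18). Zfp606 (ENSMUSG00000030386), a KRAB zinc finger gene, was at 16.2 to 25.0 (median 21.5), 15.9 to 23.4 (19.8), 19.9 to 26.4 (23.9) and 13.6 to 19.1 (15.3) in the same group order, again separate at ZT15 alone (interaction -0.47 ± 0.15, 95% interval -0.78 to -0.17). Med4 (ENSMUSG00000022109), a subunit of the Mediator complex, was at 13.1 to 16.1 (median 13.9) and 15.3 to 18.6 (16.1) at ZT3 and at 14.6 to 18.5 (16.1) and 13.6 to 16.1 (14.5) at ZT15, so its groups overlapped slightly at both times and differed in opposite senses (interaction -0.34 ± 0.10, 95% interval -0.53 to -0.14).

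The 9 others ran from -0.45 to -0.24. They were Tprkb, a subunit of a tRNA-modifying complex, the zinc finger genes Zfp65 and Zfp952, the Golgi gene Gcc1, Abtb1, Ttc5, the dipeptidyl peptidase Dpp3, Nub1, whose product lowers NEDD8 conjugates, and Oard1, which removes ADP-ribose. Of these 12 genes 3 fell at ZT15 (Kbtbd7, Zfp65 and Zfp606, by 0.47, 0.41 and 0.55), and of the 3 only Zfp606 passed without the libraries high in Cd79a (limma adjusted p = 0.0469). Zfp606 was at 0.0553 without ZT15_RUN_4, and Kbtbd7 and Zfp65 were at 0.0511 and 0.0989 without ZT15_RUN_5. Without the libraries high in Cd79a the 12 had interactions between -0.47 and -0.13, all below 0. Their ranking used the same 21 libraries, so nothing is read from the shared sign.

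Il15 (ENSMUSG00000031712), a cytokine for lymphocytes that muscle and fat also express, was the gene of the cytokine list with the smallest p. It was at 7.11 to 11.5 (median 8.72) in ZT3 SED, 7.86 to 12.9 (9.14) in ZT3 RUN, 7.17 to 11.8 (11.5) in ZT15 SED and 4.26 to 7.61 (6.29) in ZT15 RUN. The exercised ZT15 libraries held the lowest values, with a small overlap with sham at ZT15, and the interaction was -0.76 ± 0.20 (95% interval -1.17 to -0.34). It was -0.60 without the libraries high in Cd79a.

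**Figure D4:**
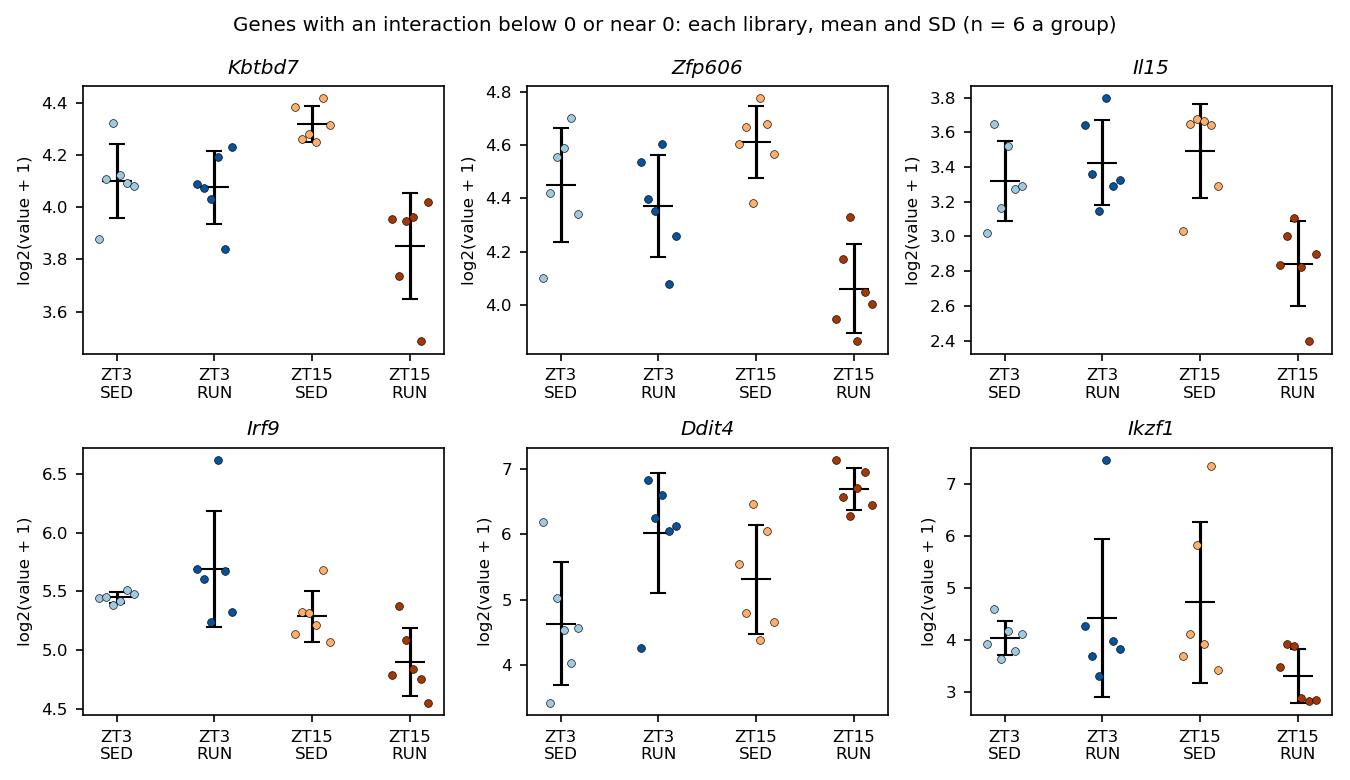
Values of 6 genes with an interaction below or near 0, in log2(value + 1), with each point a library and bars the mean and SD of 6 libraries in each of the 4 groups. Kbtbd7 and Zfp606 are lower in every ZT15 RUN library than in any ZT15 SED library, Ddit4 is higher in most RUN libraries at both times, and the high points of Ikzf1 and Irf9 in ZT3 RUN are ZT3_RUN_4.

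Interferon-stimulated genes, which encode antiviral effectors, had 22 of 22 interactions below 0, with a median of -0.38 beside 0.00 over all genes, and 21 of 22 below 0 after quantile normalization or median centring. At an unadjusted limma p under 0.05 there were 4, Irf9, Ifi35, Usp18 and Ifit2, beside 4.02% of all genes, and 0 passed after adjustment. Without the libraries high in Cd79a again 22 of 22 were below 0, with a median of -0.29 and 1 gene at that p. Irf9 (ENSMUSG00000002325), a transcription factor of the interferon response, was at 40.7 to 44.5 (median 42.7) in ZT3 SED, 36.8 to 97.5 (48.8) in ZT3 RUN, 32.5 to 50.3 (37.4) in ZT15 SED and 22.5 to 40.6 (27.2) in ZT15 RUN. The value of 97.5 is that of ZT3_RUN_4, and the groups overlapped at both times. The interaction of Irf9 was -0.63 ± 0.24 (95% interval -1.13 to -0.13) and -0.34 without the libraries high in Cd79a. Across time, 22 of 22 estimates were below 0 in exercised libraries and 17 of 22 in sham libraries, with medians of -0.81 and -0.36. Of these genes 16 passed in exercised and 0 in sham libraries, beside 4.19% and 1.18% of all genes, and the difference between these counts was not tested. Of the 22, 12 passed once the libraries high in Cd79a were omitted, 11 without ZT3_SED_1 and ZT3_RUN_1, and 10 without ZT15_RUN_6. Usp18, which restrains interferon signalling, fell by 1.07 in RUN (limma adjusted p = 0.00479) and was at -0.39 in SED (adjusted p = 0.472).

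Of the 239 genes that DESeq2 called, 28 were above 0 and 211 below. Of the 211, 203 had ZT3_RUN_4 and ZT15_SED_5 as their 2 highest libraries, against 20.5% of all genes and 0 of the 28 above 0, and 197 had the 3 libraries high in Cd79a as their 3 highest. They held 18 of the 20 lymphocyte markers, and 6 of the 211 were expressed above the median of all genes. Their median limma interaction was -1.68, and -0.07 without those libraries. Ikzf1 (ENSMUSG00000018654), a transcription factor of lymphocytes, was at 177 in ZT3_RUN_4 and 163 in ZT15_SED_5, and its group medians were 15.2, 13.9, 15.2 and 8.24 in ZT3 SED, ZT3 RUN, ZT15 SED and ZT15 RUN. DESeq2 gave it an interaction of -3.62 (adjusted p = 0.0300), and limma gave -1.81 ± 0.87 with all libraries and -0.26 without the libraries high in Cd79a. The actin regulator Coro1a, the kinesin Kif21b and the T cell chromatin organizer Satb1 were likewise at -0.18, -0.13 and 0.21 without them.

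For the 28 genes above 0 the median moved less under the same omission. Their median limma interaction was 0.87 with all libraries and 0.68 without those high in Cd79a, 27 and 26 of them were at an unadjusted limma p under 0.05, and 18 were expressed above the median. Among them were Lrrc32, Thbs1, Irs2, Palld, Tiparp, Fzd5, Nr4a1, Nr4a2, Egr1 and Ccn1, and 4 were transcripts without a gene name. Tchh and Dlx3 were also called and had an SD above the mean in ZT15 RUN. Tchh was at 15.6 ± 23.2 (SD, n = 6) there and 0.67 in ZT15 SED, with an unadjusted limma p of 0.0753. Dlx3 was at 1.30 ± 2.01 and 0.11. In 26 of the 28 the sham level was lower at ZT15 than at ZT3, and in 19 the ZT3 exercise difference was below 0. The 28 were chosen on an interaction that contains both differences and the 21 libraries kept. Nothing is therefore read from these counts, or from the 27 and 26 at small p. No gene was called by DESeq2 both with and without the libraries high in Cd79a. Without them it called 2, the immediate early genes Arc (4.93, adjusted p = 0.0277) and Egr3 (4.17, adjusted p = 0.0194), which are named here after their values were seen. Arc was at 14.0 ± 14.3 (SD, n = 6) in ZT3 SED, 6.51 ± 5.99 in ZT3 RUN, 3.43 ± 3.04 in ZT15 SED and 15.3 ± 19.1 in ZT15 RUN with all libraries in, so its SD was close to or above its mean in each group. Its limma interaction was 2.20 ± 0.91, and that of Egr3 1.67 ± 0.76.

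Lists of genes with a shared role are given by counts, medians and no test. Medians of the signalling lists stayed above 0 without the libraries high in Cd79a and after both other scalings. Of 12 AP-1 subunits 9 were above 0 with a median of 0.72, and 0.65 without those libraries, among them Fos, Junb (1.62 ± 0.56) and Atf3 (1.53 ± 0.54), with Fosl2 at 1.09 ± 0.38 (0.66 without ZT3_SED_1 and ZT3_RUN_1). Of 18 Egr and other immediate early factors 16 were above 0, with medians of 0.48 and 0.74, and 8 and then 10 at an unadjusted limma p under 0.05, beside 7.84% and 3.57% of all genes in the same settings. They held Klf4, at 1.08 ± 0.35 and then 0.65. Of 20 MAP kinase and EGF receptor feedback genes 17 were above 0 (medians 0.29 and 0.32), such as the phosphatase Dusp1 (0.92 ± 0.34), Errfi1, which inhibits the EGF receptor (1.35 ± 0.54), and Spry4, which restrains RAS signalling (0.71 ± 0.29). Without ZT3_SED_1 and ZT3_RUN_1 the interaction of Errfi1 was 0.79, and the members of this list at an unadjusted limma p under 0.05 were 1 in place of 6. Of 21 cAMP and CREB response genes 20 were above 0 (medians 0.38 and 0.34), with 8 and then 2 at that p, and they held Crem and the phosphodiesterases Pde3b (0.58 ± 0.23, then 0.34) and Pde8a (0.38 ± 0.14, then 0.19).

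Metabolic and matrix lists had medians nearer 0 under the same omission. Respiratory chain and ATP synthase genes were above 0 in 35 of 36 (median 0.14) with all libraries, and in 11 of 36 (median -0.03) without those high in Cd79a. Lipolysis genes and their receptors went from 20 of 22 (0.34) to 17 of 22 (0.10), with the lipases Pnpla2 and Lipe at 0.38 ± 0.28 and 0.30 ± 0.25, the natriuretic peptide receptor Npr1 at 0.63 ± 0.23 and the antilipolytic receptor Adra2a at -0.57 ± 0.22. These 4 genes were at 0.22, 0.09, 0.30 and -0.29 without those libraries. Adra2a was low throughout, with values of 0.18 to 1.65. It was at 1.65, 1.61 and 1.49 in ZT15_SED_5, ZT15_SED_3 and ZT3_RUN_4, and at most 1.05 elsewhere. Fatty acid oxidation genes went from 21 of 22 (0.29) to 18 of 22 (0.13), and lipogenic genes from 16 of 23 (0.18, and -0.07 after quantile normalization) to 10 of 23 (-0.03). Collagens and other matrix genes went from 29 of 29 (0.39) to 24 of 29 (0.13), with Col1a1 at 0.81 ± 0.33 and then 0.58. Insulin and glucose genes had a median of 0.11 in both, and besides Irs2 and Pfkfb3 they held Irs1, at 134 to 281 (median 183) and 84.5 to 164 (132) at ZT3 and 90.0 to 208 (181) and 149 to 251 (193) at ZT15, overlapping at both times (interaction 0.79 ± 0.28, and 0.44 without those libraries). Vegfa, an angiogenic growth factor, was at 184 to 344 (median 248) and 136 to 428 (237) at ZT3 and at 157 to 239 (218) and 214 to 845 (523) at ZT15, with an interaction of 1.18 ± 0.43 (0.92 without them).

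Latent TGF-beta anchoring and signalling genes, to which Lrrc32 and Thbs1 belong, were above 0 in 21 of 28 (median 0.25) and in 23 of 28 (0.13) without the libraries high in Cd79a. Actin cytoskeleton genes were above 0 in 20 of 26 in both (medians 0.16 and 0.11), with the adhesion gene Vcl at 0.64 ± 0.21. Wnt ligands, receptors and antagonists went from 28 of 36 (0.12) to 12 of 36 (-0.08), beside 1.05 and 0.98 for Fzd5. Genes of the unfolded protein and integrated stress response went from 14 of 21 (0.10) to 9 of 21 (-0.02), and cholesterol genes from 7 of 22 (-0.12) to 9 of 22 (-0.10). Clock repressors had a median of 0.24 and then 0.12.

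Marker lists of other cell types differed between the same 2 sets of libraries. Over all libraries 16 of 16 skeletal muscle markers were above 0 (median 1.32) and 20 of 20 lymphocyte markers below 0 (median -2.37). Without the libraries high in Cd79a these were 9 of 16 (0.06) and 8 of 20 above 0 (-0.05). No marker of either list was at 0 throughout a group, and the part of these cells in the metabolic lists was not tested. Brown adipocyte markers were above 0 in 7 of 7 with and without those libraries (medians 0.48 and 0.28). Their median summed level was nevertheless 299 in ZT15 SED and 215 in ZT15 RUN, and the 2 highest ZT15 RUN libraries were at 1584 and 1510. Ucp1, one of these markers, was at 532 and 526 in ZT15_RUN_1 and ZT15_RUN_6, and at most 17.7 in the other ZT15 RUN libraries. Preadipocyte and fibroblast markers went from 8 of 10 above 0 (0.36) to 4 of 10 (-0.16).

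**Figure D5:**
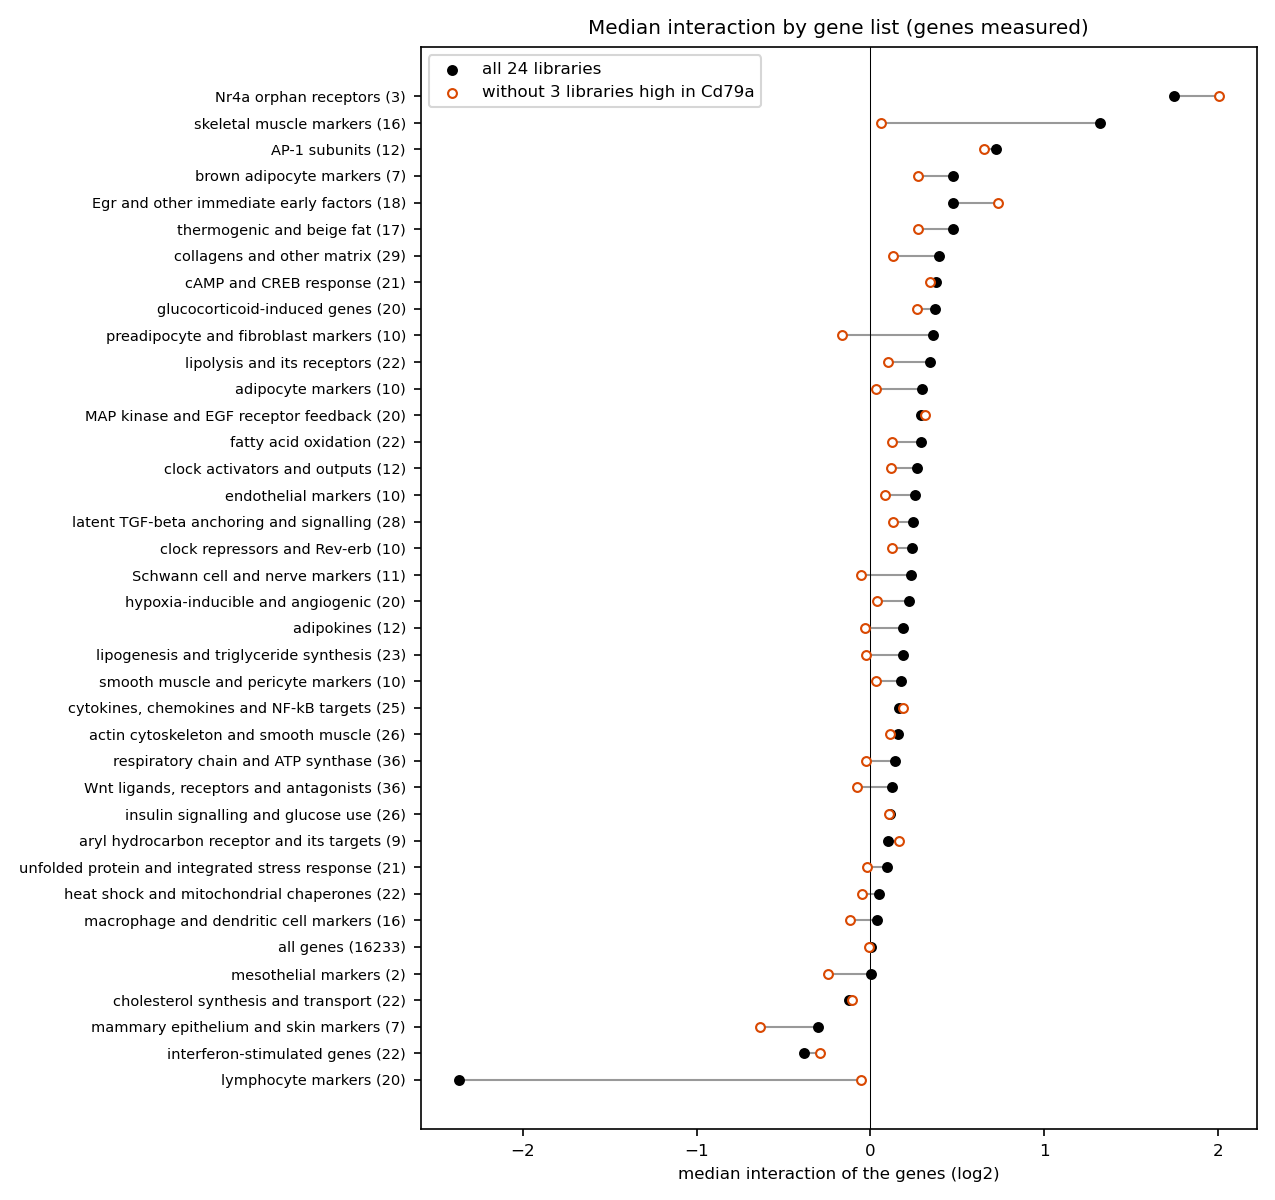
Median interaction (log2, horizontal) of each gene list, with the number of measured genes in brackets, over all 24 libraries (black) and without the 3 libraries high in Cd79a (open). The NR4A, AP-1 and Egr lists stay right of 0, interferon-stimulated genes stay left of 0, and lymphocyte and muscle markers move to near 0 in the open points.

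The genes named next are known to respond to glucocorticoids, and with all libraries none of them passed for exercise at ZT15. Without ZT3_SED_1 and ZT3_RUN_1, Ddit4, Per1 and Tsc22d3 passed there (limma adjusted p = 0.0316, 0.0274 and 0.0459). Fkbp5 did not (limma adjusted p = 0.257). Ddit4 (ENSMUSG00000020108), an inhibitor of mTORC1 induced by glucocorticoids and stress, was at 9.70 to 71.6 (median 22.5) in ZT3 SED, 18.2 to 113 (71.8) in ZT3 RUN, 19.8 to 86.8 (36.1) in ZT15 SED and 76.6 to 140 (98.7) in ZT15 RUN. The exercised medians were higher at each time, with overlap through ZT3_SED_1 and ZT3_RUN_1 at ZT3 and ZT15_SED_3 at ZT15. Its differences were 1.39 ± 0.43 and 1.37 ± 0.43, and the interaction was -0.02 ± 0.61 with a 95% interval of -1.28 to 1.25, which holds responses that differ by a factor of 2 in either direction. It was 0.57 without the libraries high in Cd79a and -0.68 without ZT3_SED_1 and ZT3_RUN_1, and it kept its sign in 21 of 40 alternatives. The glucocorticoid-induced genes Fkbp5 and Tsc22d3 were at -0.18 ± 0.43 and -0.21 ± 0.35, and at -0.69 and -0.67 without ZT3_SED_1 and ZT3_RUN_1. Per1, a clock gene that glucocorticoids and cAMP also induce, was at 0.34 ± 0.41, and at -0.14 without that pair. With all libraries the intervals of the genes named here hold both signs. The list of 20 glucocorticoid-induced genes as a whole had 13 above 0 (median 0.37), beside 50.7% of all genes. It had 15 above 0 (0.27) without the libraries high in Cd79a, and 11 (0.20) without ZT3_SED_1 and ZT3_RUN_1.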

How the data were processed

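The authors deposited 1 table of normalized signal for 16233 genes and 24 libraries. Per the submitters' processing notes, limma 3.48.3, featureCounts, Subread 1.6.2 and STAR are named without their roles. For the build, annotation and strand setting of counting the sources used here give nothing, so reads of overlapping or antisense genes cannot be told apart.

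In each column 100% of values were whole multiples of 1 step within 0.01 of a read, so whole reads were recovered. They allowed edgeR 4.0.16 (quasi-likelihood, 0 genes) and DESeq2 1.42.0 (239 genes) as alternatives added after seeing the data. No library repeated another: chi-square over degrees of freedom was 23.3 or more in the 60 within-group pairs.

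The test was limma 3.58.1 in R 4.3.3 on log2(value + 1), with 4 group means, an intensity trend, Benjamini-Hochberg adjustment over 16233 genes, a two-sided threshold of 0.05 and 20 residual degrees of freedom. The log scale understates changes of low genes. The script was tested on simulated data. Unadjusted p-values describe and do not call.

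Named genes were the 12 above and 12 below 0 of smallest p among expressed genes with a name, leading DESeq2 calls, the 3 of smallest p and the most abundant member of each list, and a fixed set. The members and lists were chosen with earlier results of these data known. Promoters are from RefSeq. Alternatives were other scalings, filters, variance models, sample weights, blocks of title numbers, marker scores as covariates and fits without libraries.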

Additional observations from a re-analysis of the deposited data

Results flagged for a closer look

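The values of 28 genes in each of the 4 groups, 112 sets of 6 libraries, were searched for a library far from the other 5. Chance gives about 1 such library in 20 sets, and 10 were found.

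In 4 cases the library was one of those high in Cd79a. Ikzf1, a lymphocyte factor, was at 177 in ZT3_RUN_4 against 18.2 in the next library. Irf9 was at 97.5 in ZT3_RUN_4 against 50.6, and Atp13a3 was lowest there, at 181 against 196. In ZT15_SED_5 Irs1 was lowest, at 90.0 against 154.

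In 2 cases it was a library of the pair that lay with the other ZT3 group. Ddit4 was at 18.2 in ZT3_RUN_1 against 65.4 in the next, and Crem was at 43.4 in ZT3_SED_1 against 23.5.

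The others were single values. Lrrc32 was lowest in ZT3_RUN_6, at 11.5 against 16.4. Egr1 was highest in ZT15_RUN_1, at 60.5 against 21.8. Pdk4 was highest in ZT3_RUN_5, at 715 against 286. Crem was lowest in ZT15_RUN_3, at 23.8 against 41.7.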

How the results depend on the processing

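The number of genes past the adjusted threshold was 0 in every limma alternative, with edgeR and without each library in turn, and 239 with DESeq2, or 2 with DESeq2 without the libraries high in Cd79a. For the interaction, genes at unadjusted p under 0.05 (1273 of them) numbered 763 with sample weights, 681 with lymphocyte and muscle scores as covariates, 580 without the libraries high in Cd79a, 2135 with edgeR and 2240 with DESeq2, and 596 and 677 with these tools without those libraries. They ranged from 750 (without ZT15_SED_5) to 1736 (without ZT3_RUN_5), with 784 without ZT3_RUN_4 and 832 without ZT15_RUN_5.

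Neighbouring title numbers hold a RUN and a SED library of the same time, and share only a number, since the labels do not say what it marks. With them as a replicate block the interaction, genes at unadjusted p under 0.05, numbered 1151, and 0 passed.

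Of 83 genes followed, 75 kept their direction in every alternative. Satb1 was at 0.289 with covariates, and at 0.21, 0.233 and 0.24 without the libraries high in Cd79a in limma, edgeR and DESeq2. Under the same 4 settings Per2 was at -0.0922, -0.105, -0.0156 and -0.00419, Nr1d1 at -0.0757, -0.0317, -0.0951 and -0.0845, and Ddit4 at 0.437, 0.567, 0.591 and 0.598. With sample weights the interaction of Per2 was at -0.0754, the interaction of Nr1d1 at -0.161 and Ddit4 at 0.326. Without ZT3_SED_1 and ZT3_RUN_1 Per1 was at -0.139, Per2 at -0.0582 and Cry1 at -0.0484. Cry1 was at -0.0087 with edgeR and -0.00519 with DESeq2, Lipe at -0.0197 with quantile normalization and -0.00334 with covariates, Ddit4 at 0.0523 with median centring and Myh4 at -0.0172 with covariates. Without a single library Cry1 ranged from -0.0521 to 0.0994, Per2 from -0.0317 to 0.319 and Ddit4 from -0.369 to 0.224. The cause of these reversals was not tested.

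Of the named genes that changed at ZT15, Tiparp, Fzd5, Zfp948 and Dusp1 passed without any single library.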
